A study of Mus musculus with 6 samples.

Results

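Genes of calcium storage in the sarcoplasmic reticulum, 9 in number, were followed in C2C12 cells in which the long non-coding RNA SYISL had been targeted. They were Atp2a1, Atp2a2, Sln, Casq1, Casq2, Hrc, Srl, Pvalb and Dhrs7c. The members were picked by name from the muscle calcium system with the si-SYISL and si-NC signals of these same arrays already known, so their differences are described here and were not tested. All 9 were found, at 11 of 39429 probes, through the RefSeq accession printed for each probe, and all 9 remained among the 28555 features (18635 named genes and 9920 unnamed probes) kept for the comparison. C2C12 is a mouse myoblast line that leaves the cell cycle and fuses into myotubes when serum is withdrawn. The cells were grown in medium with 10% fetal bovine serum, received either a control small interfering RNA (si-NC) or one against SYISL (si-SYISL), and were then held for 2 days in 2% horse serum. Each group had 3 single-colour arrays made from 1 µg of total RNA per sample. The labels give neither the sequences of the small interfering RNAs nor a separate culture for each replicate.

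Muscle fibres keep calcium in the sarcoplasmic reticulum and release it to trigger contraction. The SERCA pumps return calcium from the cytosol, small membrane peptides such as sarcolipin restrain the pumps, and acidic proteins of the lumen, above all the calsequestrins, hold the calcium until the next release. In the cytosol of fast fibres parvalbumin binds calcium as the fibre relaxes. In cultured myoblasts this equipment is built up as the cells become myotubes.

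In both groups the arrays of replicates 1 and 3 agreed within the scatter among repeated spots of a probe (chi-square per probe 0.252 in si-NC and 0.214 in si-SYISL over 399 probes with many spots, against 24.7 to 163 in the remaining 13 pairs). Each such pair was therefore averaged into 1 sample, giving 2 per group. The p-values and standard errors below are from limma, which draws each feature's spread between these samples toward that of all features. That spread may be technical, and no other spread enters them. Between 78.2% and 84.6% of spots were well above background on the si-NC arrays and between 87.9% and 90.6% on the si-SYISL arrays, 0 spots were saturated, and the number of arrays limits the precision. The gene table used here linked SYISL to no probe, and the knockdown was not checked here. Levels are log2 signals relative to each array's 75th percentile and are compared only within a probe. The median log2 difference of all features, si-SYISL minus si-NC, was 0.16, and it was 0.03 with quantile normalisation. Differences are therefore given relative to that median, ± SE with n = 2 samples in each group, unless said to be before subtraction. In bulk RNA, fewer cells with a transcript and less transcript per cell cannot be told apart.

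Of the 9 genes, 7 had si-SYISL samples that both lay above the si-NC samples, 1 (Sln) had them both below, and 1 (Pvalb) overlapped. Among all features the corresponding shares were 46.3% higher and 15.8% lower. They were 30.3% and 24.1% with quantile normalisation, with which the members' counts were again 7 and 1. With a median shift the members' counts were 6 and 1 (27.7% and 25% of all features). With the mean of probes they were also 6 and 1 (46.2% and 15.8%). With normexp background and an offset of 50 they were 7 and 0 (35.7% and 14.8%). Casq1, among the 7, was kept through the si-SYISL arrays alone. It dropped out when all 6 arrays had to be above background. The counts were then 6 and 1 of 8 members, and the shares of all features 43.7% and 17.7%. The members' differences ran from -0.43 (Sln) to 2.13 (Casq1) around a median of 0.49, against 0 for all features by construction. With Casq1 set to the nominal lower bound given below, the median was again 0.49. Because this contrast was in view when the genes were chosen, nothing is read from these counts.

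**Figure D1:**
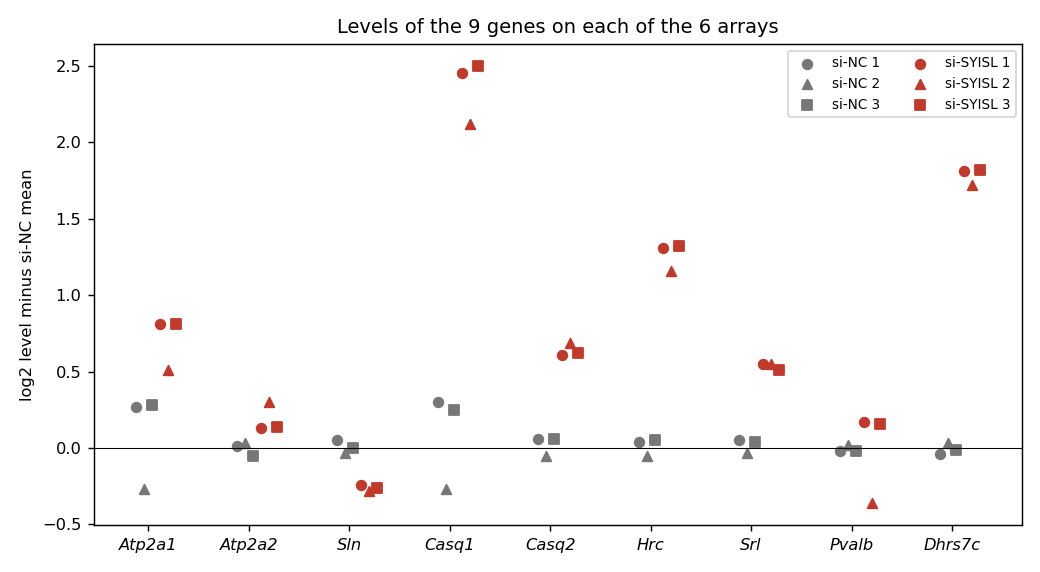
Log2 level of each gene on each of the 6 arrays minus the mean of its si-NC samples (grey, si-NC; red, si-SYISL; circles, triangles and squares, replicates 1, 2 and 3). Casq1, Dhrs7c and Hrc show the widest gaps between the groups, all si-SYISL points of Sln lie below the si-NC points, and Pvalb overlaps because si-SYISL replicate 2 lies lowest.

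Promoter windows of 300 bases were at hand in RefSeq for 5 of the 9 genes (GRCm38.p6, 250 bases before the gene's start and 50 after, printed 5′ to 3′ on the gene's strand). Of the genes with higher levels, those of the fast-fibre pump, both calsequestrins and the histidine-rich calcium binding protein are shown, because their levels were all higher in si-SYISL and the windows can be read side by side. Capitals mark matches to the E-box CANNTG, the sequence bound by MyoD and its relatives, and in Casq2 also a match to the MEF2 motif.
Atp2a1, chr7:126463024-126463323, minus strand: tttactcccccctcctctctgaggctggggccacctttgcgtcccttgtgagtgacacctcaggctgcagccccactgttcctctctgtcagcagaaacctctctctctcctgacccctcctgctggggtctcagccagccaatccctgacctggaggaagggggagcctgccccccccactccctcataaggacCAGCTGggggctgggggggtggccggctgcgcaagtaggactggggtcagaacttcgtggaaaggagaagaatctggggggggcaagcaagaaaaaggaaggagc
Casq1, chr1:172219846-172220145, minus strand: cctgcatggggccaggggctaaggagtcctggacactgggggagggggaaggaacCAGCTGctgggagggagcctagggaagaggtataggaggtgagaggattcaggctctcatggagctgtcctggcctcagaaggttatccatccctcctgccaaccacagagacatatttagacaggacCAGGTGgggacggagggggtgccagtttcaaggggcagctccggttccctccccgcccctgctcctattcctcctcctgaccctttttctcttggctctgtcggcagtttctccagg
Casq2, chr3:102086165-102086464, plus strand: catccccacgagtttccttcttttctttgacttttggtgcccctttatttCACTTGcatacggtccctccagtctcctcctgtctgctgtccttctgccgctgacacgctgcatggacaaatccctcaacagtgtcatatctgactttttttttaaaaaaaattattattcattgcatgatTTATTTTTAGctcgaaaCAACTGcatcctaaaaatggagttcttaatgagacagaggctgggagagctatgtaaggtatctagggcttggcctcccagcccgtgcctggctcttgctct
Hrc, chr7:45335019-45335318, plus strand: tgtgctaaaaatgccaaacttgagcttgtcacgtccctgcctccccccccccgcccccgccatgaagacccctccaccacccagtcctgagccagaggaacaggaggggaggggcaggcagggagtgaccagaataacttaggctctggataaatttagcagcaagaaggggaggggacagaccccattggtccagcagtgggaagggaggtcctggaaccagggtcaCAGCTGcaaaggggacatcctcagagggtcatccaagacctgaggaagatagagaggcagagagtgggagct

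Each of these 4 windows held at least 1 E-box, as did 72.3% of the 32851 windows of this length in the table. With the gene's first base counted as 0, the matches began at -55 in Atp2a1, at -195 and -67 in Casq1, at -200 and -52 in Casq2 and at -22 in Hrc. The form CAGCTG, which is also counted as CANNTG, was present in the windows of Atp2a1, Casq1 and Hrc and in 16.3% of all windows. A MEF2 motif was present at -69 in Casq2, next to an E-box, and at -180 in 1 of the 2 windows of Pvalb, against 3.19% of all windows. The other Pvalb window held E-boxes at -111 and 17. No member window matched the CArG box, which 1.63% of all windows held, or TATAAA, which 13.6% held. Both strands were searched. A match is only a match of letters in these windows.

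**Figure D2:**
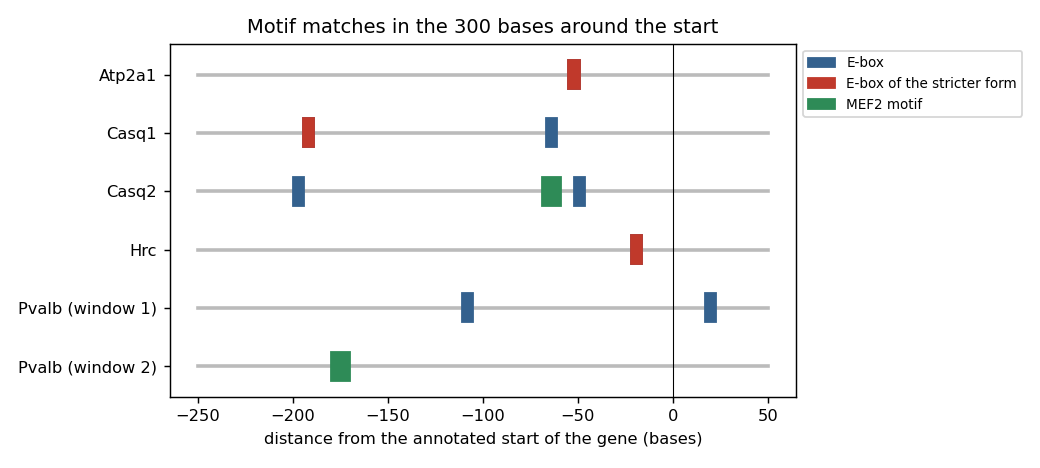
Positions of E-boxes (blue, with the form CAGCTG in red) and MEF2 motifs (green) in the 6 RefSeq promoter windows of 5 member genes, by distance from the annotated start in bases. Pvalb has 2 annotated starts, the MEF2 match and the E-boxes lie in different windows of it, and Casq2 alone among these 6 windows holds both kinds of match.

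Of the pumps, Atp2a1 encodes SERCA1, the main pump of fast fibres. Its levels were -0.55, -1.09 and -0.54 in si-NC replicates 1 to 3 and -0.01, -0.31 and -0.01 in si-SYISL replicates 1 to 3. The groups did not overlap, but replicate 2 was the lowest array of either group, and the gap between the si-NC samples (0.55) was about as wide as the difference itself, 0.49 ± 0.24. Before scaling, the signals overlapped, at 1329 to 1831 intensity units in si-NC and 1627 to 2663 in si-SYISL. Without si-NC replicate 2 the difference was 0.24 and without si-SYISL replicates 1 and 3 it was 0.31. Without si-NC replicates 1 and 3 it was 0.76.

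Atp2a2 encodes SERCA2, the pump of slow and cardiac muscle and, in another form, of most other cells. At its brighter probe the levels were 1.81, 1.83 and 1.75 in si-NC and 1.93, 2.10 and 1.94 in si-SYISL. The groups were separated by a narrow margin and the difference was 0.05 ± 0.12, less than its error. At the dimmer probe the levels were 0.39, -0.08 and 0.39 in si-NC and 0.23, 0.27 and 0.21 in si-SYISL. There the groups overlapped and the difference was -0.07 ± 0.19. With the mean of both probes the sign turned (-0.01), and with the arrays shifted to a common median the groups overlapped at the brighter probe too. The fast-fibre and the broadly expressed pump thus differed by unequal amounts, 0.49 and 0.05, and whether these amounts differ was not tested.

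Sln encodes sarcolipin, the small peptide that restrains SERCA pumps. Its levels were -4.55, -4.63 and -4.60 in si-NC and -4.84, -4.88 and -4.86 in si-SYISL. All si-SYISL arrays lay below all si-NC arrays, and the arrays of a group lay close together. The difference was -0.43 ± 0.11, and it was -0.27 before subtraction. The signal was low, 104 to 115 intensity units in si-NC and 68.6 to 92.4 in si-SYISL, but well above background on all 6 arrays. With normexp background and an offset of 50 the difference was -0.29 and the groups overlapped. Sln was the only member whose levels were lower in both si-SYISL samples.

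Among the luminal buffers, Casq1 encodes the calsequestrin of fast fibres, which holds calcium near the release channels. Its signal was 23.2, 18.1 and 24.3 intensity units in si-NC and 104, 67.7 and 117 in si-SYISL. None of the si-NC arrays showed it well above background, whereas all 3 si-SYISL arrays did. The scaled means were -7.02 in si-NC and -4.72 in si-SYISL. The si-NC arrays were then set to no less than the dimmest signal that passed as above background on each. With that setting the si-SYISL level of Casq1 was at least 4.66-fold higher (before subtraction). The bound applies to the processed signal only and is not a minimum over other kinds of processing. The size depended on the processing. The nominal difference was 2.13 ± 0.24 in the reported fit and 0.77 with normexp background and an offset of 50, which started from the median pixel signals of spot and background in place of the processed signal. Median local background ranged from 36 to 50 in si-NC and from 34 to 40.5 in si-SYISL, in the same units, and its part in the result was not tested.

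Casq2 encodes the cardiac and slow-fibre calsequestrin. Its levels were 0.71, 0.60 and 0.71 in si-NC and 1.26, 1.34 and 1.27 in si-SYISL. The groups were well apart and the samples of each group within 0.11, and the difference was 0.49 ± 0.12. The unscaled signals did not overlap either, at 3975 to 4353 intensity units in si-NC and 5116 to 6454 in si-SYISL. Unlike Casq1, Casq2 was well above background on all 6 arrays.

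Hrc encodes the histidine-rich calcium binding protein, which lies in the lumen of the reticulum. Its levels were -0.21, -0.30 and -0.20 in si-NC and 1.06, 0.91 and 1.07 in si-SYISL. Every si-SYISL array was at least 1 log2 unit above every si-NC array, and the samples of a group lay within 0.15. The difference was 1.08 ± 0.12, or 2.11-fold, and ran from 0.97 to 1.22 over 16 alternatives. Of all features, 2.23% differed by more than 1 in this direction.

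Srl encodes sarcalumenin, a calcium-binding glycoprotein of the reticulum that supports the pumps. Its levels were 0.46, 0.38 and 0.45 in si-NC and 0.96, 0.96 and 0.92 in si-SYISL. The groups did not overlap, and within each group the arrays were nearly equal. The difference was 0.38 ± 0.11, with a range of 0.35 to 0.51 over the alternatives.

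Pvalb encodes parvalbumin, the cytosolic calcium buffer of fast fibres. At its brighter probe the levels were -0.28, -0.24 and -0.28 in si-NC and -0.09, -0.62 and -0.10 in si-SYISL. The si-SYISL samples lay on either side of the si-NC samples, and the difference was -0.26 ± 0.21. Its sign rested on 1 array: it was 0.05 without si-SYISL replicate 2 and -0.56 without si-SYISL replicates 1 and 3. Within the scan that held only replicate 3 of each group it was 0.08, and within the scan of replicates 1 and 2 it was -0.26. At the dimmer probe the levels were -5.09, -4.82 and -5.07 in si-NC and -5.11, -5.08 and -5.13 in si-SYISL, again overlapping, with a difference of -0.31 ± 0.14.

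Dhrs7c encodes a short-chain dehydrogenase of the reticulum membrane that is abundant in muscle. Its levels were -5.09, -5.02 and -5.06 in si-NC and -3.24, -3.33 and -3.23 in si-SYISL. The arrays of each group agreed within 0.1 log2 units, and the groups were far apart. The difference was 1.60 ± 0.11, or 3.04-fold. The signal was low in si-NC, 71.2 to 87.2 intensity units, but well above background on all arrays, and 200.4 to 287 in si-SYISL. With normexp background the difference was 1.08.

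**Figure D3:**
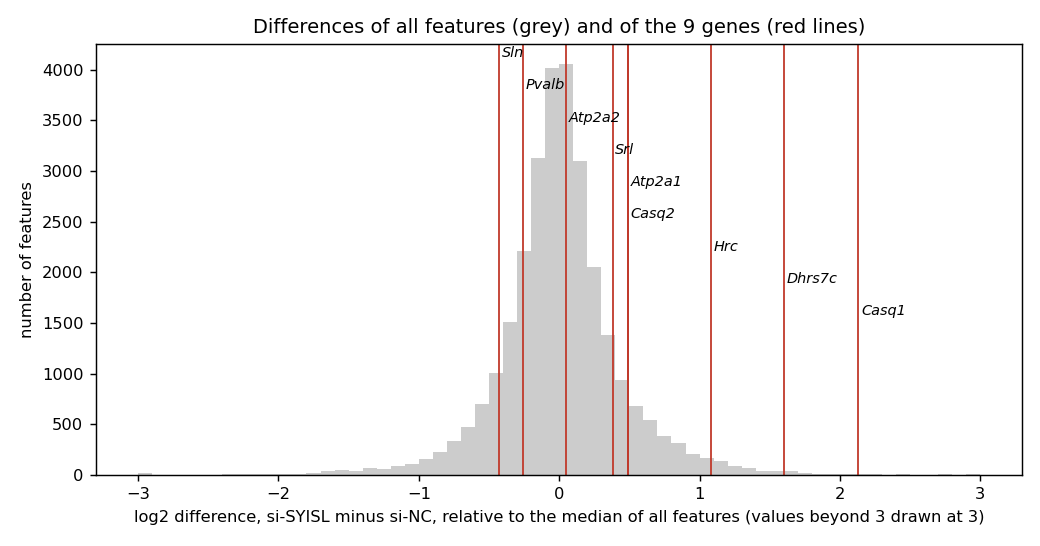
Log2 differences of the 28555 features (grey bars, number of features per 0.1 log2 unit) with the 9 genes as red lines, si-SYISL minus si-NC relative to the median of all features. Casq1, Dhrs7c and Hrc lie in the right tail, Casq2, Atp2a1 and Srl at 0.38 to 0.49 on its shoulder, Atp2a2 near 0, and Pvalb and Sln to the left of it.

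In order of their differences Dhrs7c and Hrc stood above Casq2 and Atp2a1 at 0.49 each, followed by Srl at 0.38, Atp2a2 at 0.05, Pvalb and Sln. Casq1 has only a nominal bound, tied to the processed signal, and no firm place. Its nominal 2.13 was the highest value, but its 0.77 with normexp background was below Dhrs7c and Hrc, at 1.08 each. Casq2, Atp2a1 and Srl lay close together (0.49 ± 0.12, 0.49 ± 0.24 and 0.38 ± 0.11). Sln (-0.43 ± 0.11) lay within the standard error of Pvalb (-0.26 ± 0.21), but Pvalb lay outside that of Sln. Gaps between genes were not tested. With features ranked by level and cut into 4 equal parts, Casq1 was in the dimmest, where the median difference was 0.20, Dhrs7c in the next, with a median of 0.01, and Hrc in the third, with a median of -0.09. The brightest part, with a median of -0.08, held Atp2a2, Casq2 and Srl. Among the kept features the dimmest part thus had the highest median. A feature could be kept through 1 group alone, and the groups were unequal in this. For 1005 kept features every si-NC array failed to pass, whereas for only 14 every si-SYISL array failed. The share of this filter in the medians of the 4 parts was not tested.

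**Figure D4:**
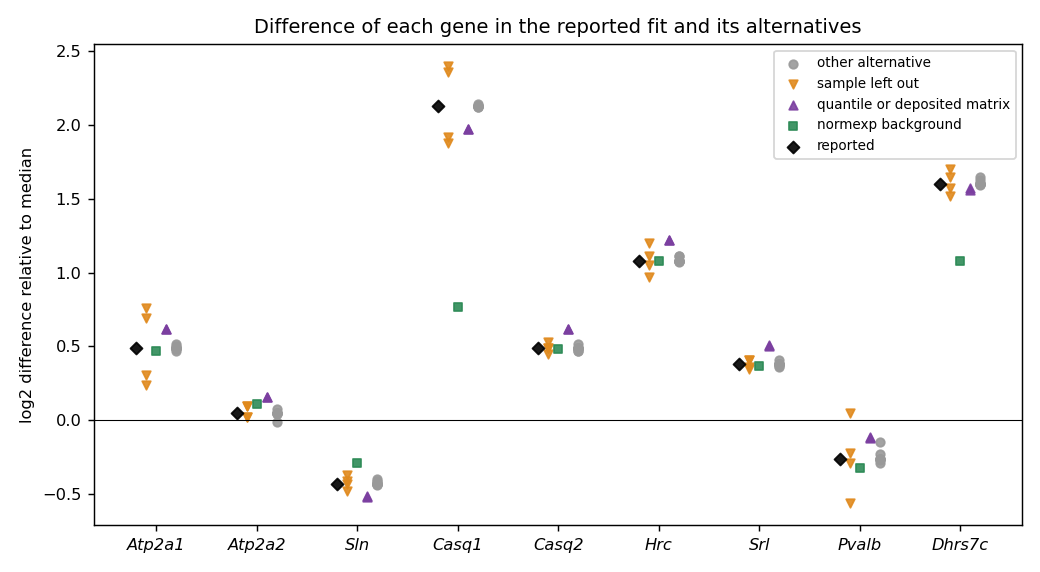
Log2 difference of each gene, si-SYISL minus si-NC relative to the median of all features, in the reported fit (black diamonds) and its alternatives (coloured marks). Casq1 moves from 2.13 to 0.77 and Dhrs7c from 1.60 to 1.08 with normexp background on median pixel signals, Atp2a1 spreads from 0.24 to 0.76 when a sample is left out, and Pvalb crosses 0.

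Other genes of the calcium system were taken from 5 lists of 60 genes, of which 53 were kept. By limma 0 of the 53 passed an adjusted p of 0.05 over all features, in either direction, with a smallest adjusted p of 0.116, and 10 had an unadjusted p under 0.05. Over all 28555 features limma called 0 (0%), with 6462 (22.6%) at an unadjusted p under 0.05. The 53 genes had a median difference of -0.05, against 0.49 for the 9 members. The members were chosen with this contrast known, so nothing is read from that gap. Both si-SYISL samples were above both si-NC samples for 24 of them and below for 10, near the shares of all features (46.3% and 15.8%).

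Of 16 release and triad genes 0 passed in either direction, the median difference was 0.00, and 9 were higher in both samples and 3 lower, where 46.3% and 15.8% of all features were. Cacna1s, the voltage-sensing subunit of the calcium channel of the transverse tubule, had the highest value (0.75 ± 0.15, limma adjusted p = 0.118). Asph, whose locus also encodes the triad protein junctin, had the lowest (-0.55 ± 0.13, limma adjusted p = 0.192). Cacna1s stood at -0.30 and -0.57 in si-NC and at 0.39 and 0.57 in si-SYISL.

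Among 9 other pumps, exchangers and pump regulators 0 passed and the median was 0.09. Slc8a3, a sodium-calcium exchanger, stood highest at 0.84 ± 0.36 (limma adjusted p = 0.215). Atp2b1, which encodes 1 of several calcium pumps of the plasma membrane, was lowest at -0.70 ± 0.11 (limma adjusted p = 0.128). Atp2b2 and Atp2b4, which encode others, were at 0.32 ± 0.22 and 0.16 ± 0.15. Slc8a3 was at 0.18 and 0.04 in si-NC and at 1.63 and 0.61 in si-SYISL, so its value came largely from replicates 1 and 3. The 9 genes of store-operated entry and IP3 receptors had a median of -0.09, with 0 passing, and ran from -0.24 ± 0.17 (Stim2, a calcium sensor of the reticulum, limma adjusted p = 0.788) to 0.18 ± 0.11 (Itpr1, an IP3 receptor, limma adjusted p = 0.186).

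The 11 calcium-binding proteins of the general endoplasmic reticulum, which cells of all kinds use, had a median of -0.05, with 0 passing. Rcn3, a reticulocalbin, was highest (0.43 ± 0.12, limma adjusted p = 0.127) and Pdia4, a protein disulfide isomerase, lowest (-2.12 ± 0.31, limma adjusted p = 0.116). Pdia4 stood at -0.07 and -0.42 in si-NC and -2.61 and -1.80 in si-SYISL. For 8 kept cytosolic EF-hand genes the median was -0.19 with 0 passing, from Calm3, a calmodulin gene, at -1.02 ± 0.20 (limma adjusted p = 0.144) to S100a11 at 0.03 ± 0.12 (limma adjusted p = 0.341).

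**Figure D5:**
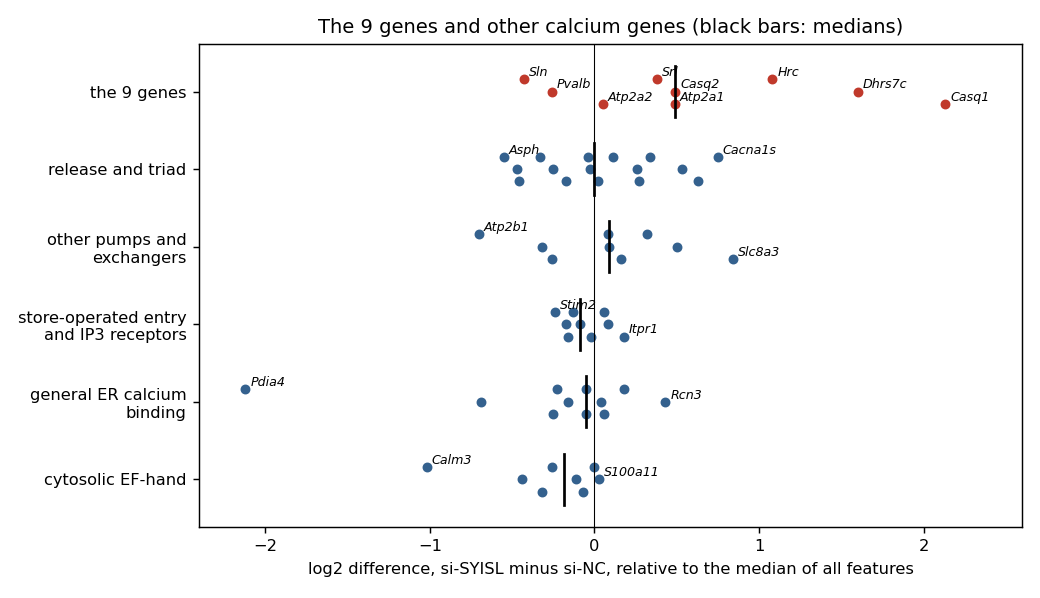
Log2 differences, si-SYISL minus si-NC relative to the median of all features, of the 9 genes (red) and of 53 other calcium genes in 5 lists (blue, with the highest and lowest gene of each named), black bars marking medians. The median is 0.49 for the 9 genes, which were chosen with this contrast known, and between -0.19 and 0.09 in the other lists.

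Markers were read for the state of the cells. Of 8 genes of differentiated muscle, 7 were well above background on all si-NC arrays and 8 on all si-SYISL arrays. Actn2 passed on only 1 si-NC array and was kept through si-SYISL alone. Both si-SYISL samples were higher for 6 of the 8 genes, Actn2 included, as they were for 46.3% of all features (30.3% with quantile normalisation). Their summed scaled signal ranged from 27.2 to 31.0 in si-NC and from 46.1 to 47.3 in si-SYISL. Their median difference was 0.59, with Tnnt3, the fast troponin T, at 1.24 ± 0.16 (limma adjusted p = 0.0939) and Myog, a regulator of differentiation, at -0.02 ± 0.17 (limma adjusted p = 0.602). For 6 genes of cells in cycle the median was -0.50 and the summed signal 10.1 to 13.0 in si-NC and 8.51 to 11.3 in si-SYISL. The muscle list thus differed in the same direction as most members, with Myog and Des overlapping between groups. The median of the cycle list lay in the opposite direction, but only Top2a, Cdk1 and Aurkb were lower in both si-SYISL samples. Aurkb passed on only 2 si-SYISL arrays and was kept through si-NC alone. Mki67, Ccnb1 and Ccna2 overlapped between groups, as did the summed signals of the cycle list. Of all features, 15.8% were lower in both samples (24.1% with quantile normalisation). The part of either list in the members' differences was not tested. Of the markers of other cells, Lep (fat) and Tie1 (endothelium) were not above background on any array. The summed signals were 0.109 to 0.124 against 0.112 to 0.144 for 4 fat genes, 0.58 to 0.597 against 0.562 to 0.671 for 3 blood genes and 0.935 to 1.02 against 1.08 to 1.12 for 4 endothelial genes, si-NC first. For 6 heart genes they were 0.417 to 0.437 against 0.26 to 0.29, where Nppb, a natriuretic peptide gene, differed by -1.95 ± 0.20 (limma adjusted p = 0.0893) and 4 of the others overlapped between groups. For 5 smooth muscle genes they were 72.4 to 75.7 against 82.2 to 86.9. Acta2, the brightest of these, differed by 0.06 ± 0.11, and the list ran from -0.87 (Cnn1) to 0.46 (Myh11) around a median of 0.06. Myh11 passed on only 1 si-NC array and was kept through si-SYISL alone. For 4 nerve or glia genes the summed signals were 4.80 to 5.06 against 4.09 to 4.24, and for 4 tenocyte or fibroblast genes 9.19 to 10.0 against 12.4 to 13.0. In the tenocyte or fibroblast list Scx, the brightest gene, differed by 0.29 ± 0.12. Pdgfra and Dpt overlapped between groups, and the median of the 3 kept genes was -0.26.

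The profile of the members over the 4 samples, taken as the median of the 8 genes above background in both groups, was 0.03 and -0.03 in si-NC and 0.57 and 0.53 in si-SYISL (replicates 1 and 3, then replicate 2, before subtraction). By mean absolute distance over these 4 samples, the nearest of 17521 named genes were Slc35f2 (0.0085), Gsta3 (0.0115), Vwa8 (0.0126), Il16 (0.0149) and Sfxn3 (0.015). With so few samples many genes lie close to any profile.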

How the data were processed

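The members and gene lists were chosen with earlier results of these data known. The deposited scanner files hold intensity (gProcessedSignal), background-subtracted and detrended within each array and not normalised between arrays, with flags per spot, per the file headers. Feature Extraction is listed as version 11.0.1.1 in those headers and as 10.5.1.1 in the submitters' processing notes. Values in the deposited series matrix are log2, with nearly equal quantiles, and were taken as quantile-normalised by the authors, with the method not given in the sources used here. It served as an alternative.

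From every log2 signal the 75th percentile of its array (non-control spots) was subtracted, and control and outlier spots were left out. Probes were named through RefSeq accessions (assembly GRCm38.p6): 27234 of 39429 probes matched a symbol, 20659 in all. A probe was kept when well above background on all 3 arrays of a group, and a gene was represented by its brightest kept probe. Groups were compared with limma 3.58.1 in R 4.3.3 (data.table, version 1.17.8), two-sided, with Benjamini-Hochberg adjustment over all features at 0.05. The design named 6 arrays, merging those alike within spot noise, and left 2 samples in each group (2 residual and 2.37 prior degrees of freedom). The fit was run on simulated data with known changes, as a check of the mean fitted differences only. How often it calls a change of a given size with so few samples is not given here. Figures used Python 3.11.15 with matplotlib 3.10.9, numpy 2.4.6 and pandas 2.3.3.

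Named genes were the 9 members, the highest and lowest gene of each calcium list, and the 5 nearest profiles. Tnnt3, Myog, the other named markers and the genes named for changed calls were picked after their values were seen. Alternatives covered background, normalisation, filter, probes, variance trend, samples, blocks and each sample left out. Protein sequences were not used here.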

Additional observations from a re-analysis of the deposited data

How the results depend on the processing

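Of the members, 7 kept the sign of their difference under every alternative that gave them a value, and the exceptions were Atp2a2 (-0.01 with the mean of probes) and Pvalb (0.05 without si-SYISL replicate 2). The members' median of 0.49 was 0.62 with quantile normalisation and with the series matrix and 0.38 over the 11 probes taken singly. With 1 sample left out it ran from 0.35 (without si-SYISL replicates 1 and 3) to 0.53, and was 0.36 without si-NC replicate 2. The count of 0 features called by limma was 177 with normexp background (offset 50, on median pixel signals), 1 with a median shift (Cd52), 904 with a variance trend and robust estimation together, 83 with the scan as a block and the shared sample as a random block, and 9762 with the 6 arrays as 6 samples, which counts each repeated sample as 2. With 1 sample left out it ran from 0 to 1379 (without si-NC replicates 1 and 3), and was 276 without si-NC replicate 2. These fits assume that the lone sample varies like the other group. Calcium pathway genes called, 0 as reported, numbered 1 with the same normexp setting (Pdia4, lower), 5 with the trend and robust estimation (Cacna1s, Rcn3 and Tmem38a higher, Atp2b1 and Pdia4 lower), 22 with 6 samples (15 higher, 7 lower), and 0 to 2 with 1 sample left out (Cacna1s and Pln without si-NC replicates 1 and 3). The cause of these changes was not tested. With the replicate block 0 of 28555 features were called and the members' median was 0.49. Same-numbered samples did not deviate together (r = -0.031 over features, which are not independent replicates), so the numbers were not taken as pairs. For Casq1, whose si-NC signal did not pass as above background, only a nominal bound on the fold can be given. That bound applies only to the processed signal and does not rest on a firm detection limit.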
